A study of Mus musculus with 3 samples.

Results

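IM-TL is the cluster of inner medullary thin limb cells among the 25 clusters into which the authors sorted single cells of the mouse renal medulla. Its members are the cells that carry the deposited cluster label IM-TL, all within the loop of Henle (LOH) cell type, and they number 7706 of 181257 cells (4.25%). The medullas came from male BALB/c mice, either healthy controls or mice at day 28 or day 84 after reversible unilateral ureteric obstruction (R-UUO), in which a clamp on the ureter is later taken off. Each pool joined the medullas of 3 to 4 mice, giving 4 pools of controls, 4 of day 28 and 2 of day 84, and the pool is the replicate throughout. The labels and the study's supplemental methods name the dissected tissue papilla, and its main text and methods call it medulla. The study also describes a varying amount of outer medulla in it. In the long-term R-UUO mice of the study the other kidney was also removed after the clamp came off, and the controls are labelled only as healthy, so obstruction and any other operation cannot be told apart here. The files analysed here hold no gene values, so the label could not be set against thin limb markers and is taken as the authors gave it.

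Thin limbs are the narrow, flat-walled segments that join the proximal part of the nephron to the thick ascending limb. The descending thin limb (DTL) is rich in the water channel aquaporin 1 along much of its length, and the ascending thin limb (ATL) lets sodium chloride pass but hardly any water. Running beside the collecting ducts (CDs) and vasa recta, they form the countercurrent arrangement that keeps the inner medullary (IM) interstitium concentrated. IM-TL is the third thin limb cluster of the annotation, kept apart by the authors from ATL and DTL.

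A few facts of the series bear on every value of IM-TL. The 10 pools held between 13013 and 24338 cells. At the median, a pair of pools had 25.4% of the smaller pool's droplet barcodes in common when both came from the same condition and 2.78% when they did not, the pattern of a separate droplet run for each condition. Run and condition therefore cannot be told apart. Among IM-TL cells, pairs of pools of one condition shared at most 29 droplet barcodes and pairs of different conditions at most 3. Every p-value below measures only the spread between pools, which leaves out the spread between runs. The two-sided exact permutation test, as run here, cannot give less than 0.0286 for 4 pools against 4, or less than 0.133 for 2 against 4. At day 84 it therefore cannot pass 0.05.

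The first comparison asks how large a part of the cells read from the medulla were IM-TL in controls and after R-UUO. Such shares are not counts in tissue. IM-TL cells were about 3 to 4 times scarcer among all cells at day 28 and were also scarcer at day 84. The control pools 1 to 4 held 1305, 1362, 1042 and 1556 IM-TL cells, the day 28 pools 162, 190, 359 and 571, and the day 84 pools 537 and 622. As a share of all cells this was 6.67%, 5.60%, 7.23% and 7.66% in the control pools. In the day 28 pools the share was 1.24%, 1.36%, 2.17% and 3.67%, and in the day 84 pools 2.72% and 2.62%. No pool after R-UUO reached the lowest control pool. Counting error was small beside these gaps, the widest exact 95% binomial interval at day 28 running from 3.38% to 3.97% in pool 4. Control pools averaged 6.79% ± 0.891 (SD, n = 4), day 28 pools 2.11% ± 1.12 (SD, n = 4) and day 84 pools 2.67% ± 0.0676 (SD, n = 2). In tissue sections of another mouse line, the study counted thin limb cells without aquaporin 1 as a share of genetically labelled nephron cells. It reported that share as unchanged at day 28, in contrast to its single-cell data. At day 84 it reported fewer labelled nephron cells throughout the IM.

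In a limma fit of log2 odds over all 25 clusters, the IM-TL share fell by 1.88 at day 28 (standard error 0.345, adjusted p = 0.00121, exact permutation p = 0.0286). At day 84 it fell by 1.40 (standard error 0.423, adjusted p = 0.0232, exact permutation p = 0.133). Changed shares were common, with 88% of all clusters called at day 28 and 48% at day 84, so a call alone does not set IM-TL apart. Between day 28 and day 84 the log2 odds differed by 0.49 (95% interval -0.47 to 1.45, adjusted p = 0.394), with 8% of clusters called, and no recovery was detectable. The call at day 84 rests on both of its pools, since the adjusted p became 0.113 without pool 1 and 0.0904 without pool 2. It was also lost with the pool number as a block, fitted after seeing the data (-1.04, limma adjusted p = 0.0762). Shares of one cluster move with the others: proximal tubule cells, a sign of outer tissue in the dissection, made up 22.8%, 21.2%, 13.0% and 2.95% of the day 28 pools and at most 3.02% of any control pool. With proximal tubule cells left out of the total, the IM-TL log2 odds changed by -1.66 at day 28 (adjusted p = 7.09e-04) and by -1.33 at day 84 (adjusted p = 0.00877).

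**Figure D1:**
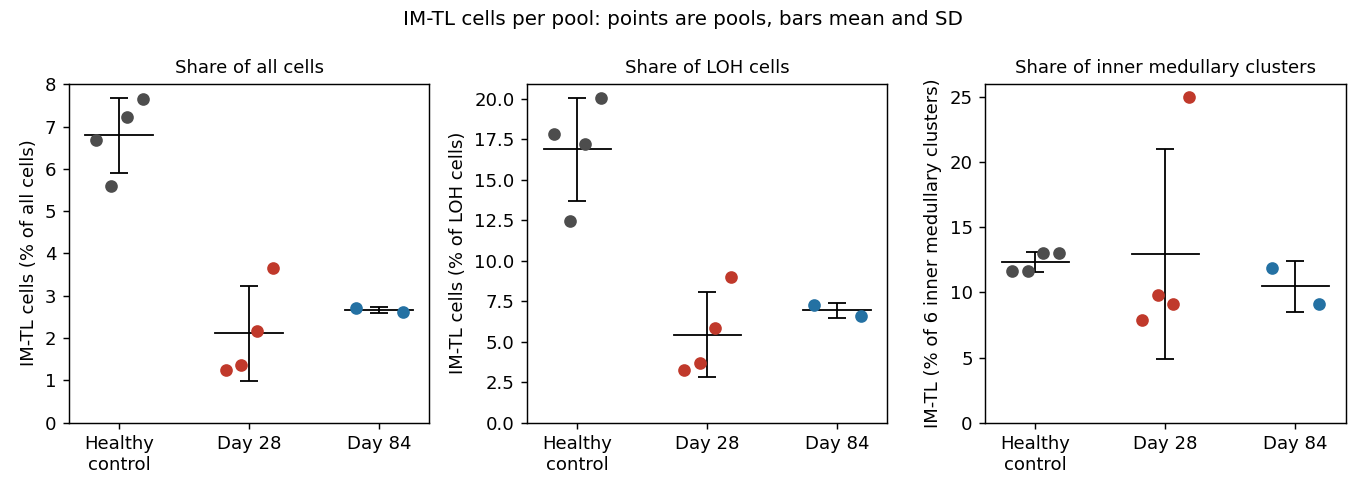
Share of IM-TL cells in each pool (points), with the mean and SD of each condition, as a percentage of all cells, of LOH cells and of the cells of 6 inner medullary clusters. The pools after R-UUO lie below every control pool in the first 2 panels, while in the panel of the inner medullary clusters day 28 pool 4 stands at 25.0% and the other pools lie between 7.88% and 13.0%.

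Within the LOH cell type, which leaves out proximal tubule, CD, endothelial and interstitial cells, the shift was of like size. IM-TL cells made up 17.8%, 12.5%, 17.2% and 20.0% of LOH cells in the control pools. In the day 28 pools they were 3.23%, 3.71%, 5.84% and 8.97%, and in the day 84 pools 7.28% and 6.61%. The log2 odds fell by 1.92 at day 28 (standard error 0.348, limma adjusted p = 5.14e-04, exact permutation p = 0.0286). They fell by 1.43 at day 84 (adjusted p = 0.0149, exact permutation p = 0.133), with an adjusted p of 0.0551 without day 84 pool 1 and 0.0663 without pool 2. Of the 7 LOH clusters, 85.7% were called at day 28 and 71.4% at day 84. From day 28 to day 84 the difference was 0.49 (adjusted p = 0.325), with 28.6% called.

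The calls for this share depended on injured cells of the lineage, on the UMI range and, at day 84, on the test. With edgeR on cell counts the day 84 change was -0.92 (adjusted p = 0.157) and no longer passed, while that at day 28 was -1.53 (adjusted p = 0.00336). The cluster InjuredLOH made up at most 0.495% of LOH cells in any control pool, 15.5%, 23.5%, 24.3% and 35.4% in the day 28 pools and 28.4% and 6.39% in the day 84 pools. With InjuredLOH left out of the lineage, the change at day 84 was -1.12 (adjusted p = 0.108) and no longer passed, while that at day 28 was -1.47 (adjusted p = 0.00864). Among cells of 800 to 1200 UMIs the LOH share at day 28 changed by -0.84 (adjusted p = 0.116), against -1.64 (adjusted p = 0.0165) at day 84. Over all cells of that UMI range, the IM-TL share changed by -1.56 (adjusted p = 0.0197) and -1.62 (adjusted p = 0.0374). In that UMI range, inside which pools can still differ in depth, IM-TL cells were 6.68% to 8.27% of the control pools' cells, 1.36%, 1.84%, 3.03% and 6.52% of those at day 28 and 3.10% and 2.19% of those at day 84, and day 28 pool 4 came close to the lowest control pool. The value of day 28 pool 1 rests on 9 IM-TL cells.

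The number of IM-TL cells per cell of each of the other 24 clusters was compared next. Further clusters in the pool do not move this ratio, but it falls both when IM-TL falls and when the other cluster rises. At day 28, IM-TL cells were fewer relative to 15 of 24 clusters (62.5%) and more numerous relative to none, and at day 84 fewer relative to 11 (45.8%). Without day 28 pool 4 the day 84 count was 19 clusters in either direction. The median change over the 24 ratios was -2.41 at day 28 and -1.66 at day 84 on the log2 scale. The 3 steepest changes at day 28 were -7.94 for InjuredLOH (standard error 0.556, limma adjusted p = 6.82e-07), -7.72 for the proximal tubule cluster PT-S1S2 (adjusted p = 8.22e-05) and -7.25 for InjuredCD (adjusted p = 5.88e-08). In that order, these clusters had only 9 to 54, 9 to 22 and 8 to 19 cells per control pool. The size of these changes therefore comes mainly from the rise of the 3 clusters, as the IM-TL log2 odds among all cells fell by 1.88. For the same 3 clusters the day 84 changes were -6.66 (adjusted p = 2.35e-05), -5.16 (adjusted p = 0.00563) and -7.36 (adjusted p = 3.63e-07), and at that time OSOM-TAL_b (-5.45) and Immune (-5.29) also lay below PT-S1S2. In the control pools there were between 25.2 and 116 IM-TL cells for each InjuredLOH cell, at day 28 between 0.158 and 0.254, and at day 84 there were 0.256 and 1.03.

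**Figure D2:**
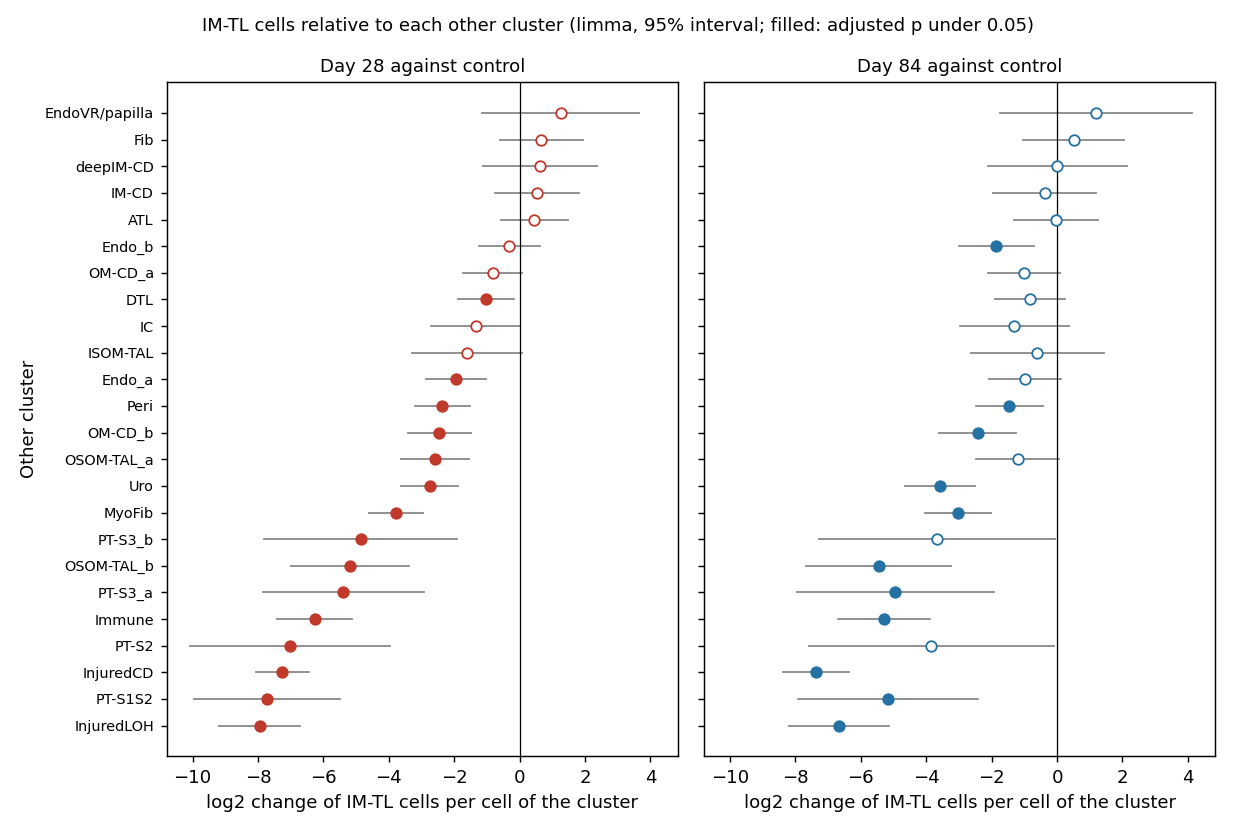
Log2 change in the number of IM-TL cells per cell of each other cluster at day 28 (left) and day 84 (right) against control, with the 95% interval of the limma fit; filled points pass an adjusted p of 0.05. The inner medullary clusters EndoVR/papilla, deepIM-CD, IM-CD and ATL and the cluster Fib stand at the top with intervals that span 0, and the injured clusters at the bottom.

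Against 4 of the 5 other clusters of the inner medulla no shift of IM-TL in the fit of 3 conditions passed the threshold, and DTL was the exception, at day 28. There were 0.516, 0.486, 0.652 and 0.616 IM-TL cells per ATL cell in the control pools, 0.458, 0.642, 0.610 and 1.97 at day 28, and 0.614 and 0.494 in the day 84 pools. The log2 change was 0.45 at day 28 (95% interval -0.58 to 1.49, limma adjusted p = 0.401) and -0.03 at day 84 (95% interval -1.30 to 1.24, adjusted p = 0.998). A 2-fold rise lies inside both intervals, and a 2-fold fall inside that of day 84. Day 28 pool 4 sat far above every other pool, which all lay between 0.458 and 0.652.

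For DTL, control pools held 0.601, 0.446, 0.523 and 0.670 IM-TL cells per DTL cell, day 28 pools 0.186, 0.210, 0.273 and 0.494, and day 84 pools 0.349 and 0.278. The highest day 28 pool overlapped the controls and neither day 84 pool did. The change was -1.04 for day 28 pools (standard error 0.387, limma adjusted p = 0.0374, exact permutation p = 0.0571) and -0.83 for day 84 pools (adjusted p = 0.149, exact permutation p = 0.133). The day 28 call was fragile and passed without day 28 pool 4 or control pool 2 but not without any one of the other 8 pools. The day 84 value passed in 3 of 12 alternatives, with adjusted p of 0.0461 with only controls and day 84 in the fit, 0.0327 without day 28 pool 4 and 0.0490 with a stricter cell filter, where the change was -1.16. That the DTL and ATL ratios differ was not tested.

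The CD and vascular clusters of the inner medulla gave wide intervals as well. For each cell of deepIM-CD, the deep inner medullary collecting duct that opens toward the renal pelvis, there were 0.512 to 0.875 IM-TL cells in the control pools, 0.486, 0.798, 0.382 and 6.34 at day 28 and 0.637 and 0.649 at day 84. Per IM-CD cell the control pools ranged from 0.439 to 0.941, the day 28 pools read 0.638, 0.812, 0.791 and 3.44, and the day 84 pools 0.810 and 0.407. Per EndoVR/papilla cell, an endothelial cluster named for vasa recta and papilla, the ratio was 1.72 to 2.13 in the controls, 1.93, 2.60, 1.32 and 71.4 at day 28 and 7.16 and 2.73 at day 84. At day 28 the 3 changes were 0.62, 0.54 and 1.26 (adjusted p = 0.466, 0.401 and 0.323 by limma). All 3 sat on day 28 pool 4 and were -0.28, -0.01 and -0.03 without it. At day 84 they were 0.00, -0.38 and 1.20, none past the threshold in the fit of 3 conditions, although without day 28 pool 4, which widens the common spread, the EndoVR/papilla change of 1.20 had an adjusted p of 0.0326 and both day 84 pools lay above all 4 control pools.

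Day 28 pool 4 therefore needs to be named beside these ratios. It held 571 IM-TL cells, the most of its condition, but 90 deepIM-CD, 166 IM-CD and 8 EndoVR/papilla cells, the fewest of any pool in each case, and its 290 ATL cells were also the fewest. Its proximal tubule share of 2.95% was the lowest at day 28, near control pool 2 at 3.02%, and its InjuredLOH share of the lineage was the highest of all pools. Whether dissection, injury or handling set these numbers was not tested. Leaving it out, the IM-TL share at day 28 changed by -2.20 among all cells (adjusted p = 7.53e-05) and by -2.22 among LOH cells (adjusted p = 9.92e-05).

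Taking IM-TL, ATL, DTL, IM-CD, deepIM-CD and EndoVR/papilla as 6 inner medullary clusters, IM-TL cells made up 11.6%, 11.7%, 13.0% and 13.0% of them in the control pools. In the day 28 pools the share was 7.88%, 9.82%, 9.13% and 25.0%, and in the day 84 pools 11.8% and 9.10%. By limma the log2 odds changed by -0.08 at day 28 (standard error 0.401, adjusted p = 0.854) and by -0.27 for day 84 (standard error 0.491, adjusted p = 0.718). A change of IM-TL relative to the inner medullary clusters together was not detectable with these pools. The other 3 day 28 pools lay below all control pools, which is given as values only because the split was seen in the data.

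A second question is how much RNA was read from each IM-TL cell. Pools also differed in the median UMI count of their other cells, from 758 in day 84 pool 2 to 3313 in day 28 pool 1. In day 28 pool 4 that median was 1600, above every control pool, while its IM-TL median lay below every control pool. The median UMI count per IM-TL cell was 1148, 1471, 1051 and 1158 in the control pools, 2365, 1614, 1371 and 1048 at day 28 and 726 and 585 at day 84. Day 28 pools overlapped the controls and both day 84 pools lay below every other pool. The day 28 difference from control was 0.35 on the log2 scale (95% interval -0.19 to 0.90, limma adjusted p = 0.261, 36% of clusters called). At day 84 the count fell by 0.88 (standard error 0.332, adjusted p = 0.0351, exact permutation p = 0.133), with 40% called, and from day 28 to day 84 by 1.23 (adjusted p = 0.00135), with 100% of clusters called. The day 84 call was lost, at adjusted p from 0.0523 to 0.286, in 8 of 15 alternatives. These were the fits without control pool 1, 2 or 4, day 28 pool 2 or either day 84 pool, with the stricter cell filter (-0.62, adjusted p = 0.118) and with the probe barcode as a covariate (-0.64, adjusted p = 0.140). UMI counts were fractional in control pool 1 and whole in all other pools, so the authors may have processed that pool differently, and its part in the results was tested only by leaving it out.

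**Figure D3:**
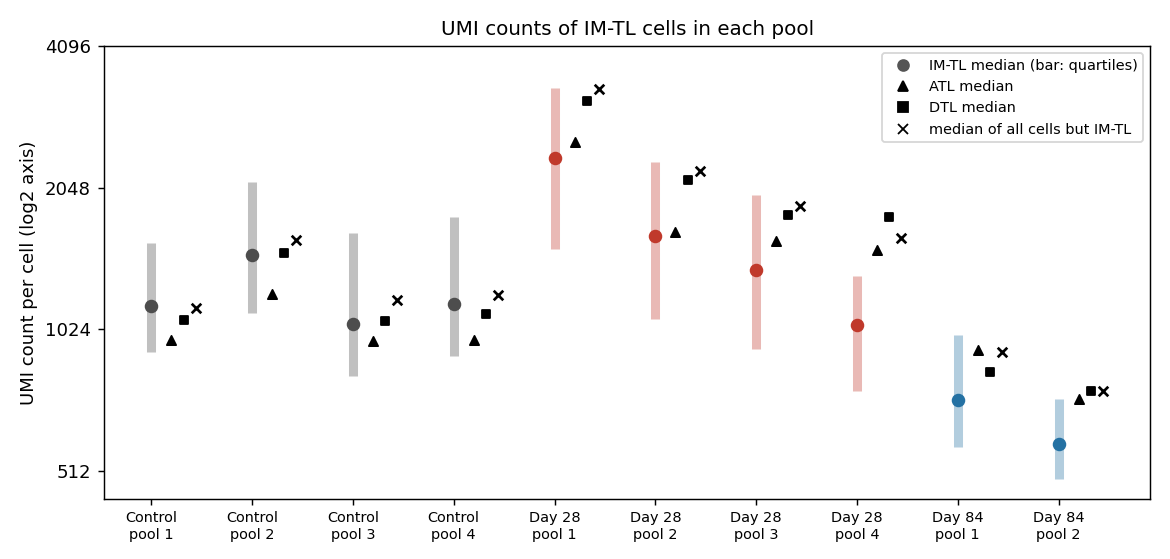
Median UMI count per IM-TL cell in each pool (coloured points; bars span the quartiles) on a log2 axis, with the medians of ATL, DTL and all other cells of the same pool. IM-TL lies above ATL in the 4 control pools and below ATL in the 6 pools after R-UUO.

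Within a pool, where depth is shared, IM-TL cells changed place. In control pools their median UMI count was 1.01, 0.927, 0.890 and 0.957 times that of all other cells of the pool. In the day 28 pools the ratio was 0.714, 0.727, 0.733 and 0.655, and in the day 84 pools 0.791 and 0.771. No pool after R-UUO overlapped the controls. Ordered from the highest median UMI count to the lowest, IM-TL stood at places 12 to 17 of 25 clusters in the control pools and at places 18 to 22 afterwards. The fit of this relative count gave a change of -0.42 at day 28 (standard error 0.0799, limma adjusted p = 0.00151, exact permutation p = 0.0286, 32% of clusters called). The change at day 84 was -0.27 (adjusted p = 0.0624, exact permutation p = 0.133, 20% called), and from day 28 to day 84 the difference was 0.14 (adjusted p = 0.391). In that last comparison limma called 0% of clusters, with 5 of 25 at an unadjusted p under 0.05. Over all 25 clusters the median change of this measure against control was -0.27 at day 28, where all 8 called were lower. At day 84 that median was -0.13. A lower relative count was thus common among clusters, and the reference of all other cells also moves with the make-up of the pool. For IM-TL at day 84 the limma adjusted p was 0.0288 without day 28 pool 4 and 0.00840 with the stricter cell filter, where the change was -0.33. Against the other LOH cells of the pool, day 84 differed from day 28 by 0.36 (limma adjusted p = 0.0424).

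The shift was also seen against the other thin limbs, a comparison chosen after the values had been seen. In control pools IM-TL cells carried 1.18, 1.21, 1.09 and 1.19 times the UMIs of ATL cells. At day 28 the ratio was 0.923, 0.978, 0.871 and 0.693, and at day 84 it was 0.786 and 0.802. All 4 control pools lay above 1 and all 6 pools after R-UUO below it. The mean fell from 1.17 ± 0.0544 (SD, n = 4) to 0.866 ± 0.123 (SD, n = 4) and 0.794 ± 0.0118 (SD, n = 2). On the log2 scale the changes were -0.44 (standard error 0.119, limma adjusted p = 0.00714) at day 28 and -0.55 (standard error 0.146, adjusted p = 0.0147) at day 84, and the latter passed with both day 84 pools but not without pool 1 (adjusted p = 0.0633) or pool 2 (adjusted p = 0.0598). Without day 28 pool 4 the day 28 change was -0.34 (adjusted p = 0.00642).

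Against DTL cells the ratio was 1.07, 0.989, 0.985 and 1.05 in the control pools, 0.756, 0.761, 0.767 and 0.590 in those of day 28 and 0.874 and 0.773 in those of day 84. The groups did not overlap, and the change was -0.52 at day 28 (limma adjusted p = 0.00214) and -0.32 at day 84 (adjusted p = 0.0846). The day 84 change ranged from -0.40 to -0.19 over 13 alternatives and passed in 2, with only controls and day 84 in the fit (adjusted p = 0.0372) and without day 28 pool 4 (adjusted p = 0.0221). Over the 24 other clusters, the relative UMI count of IM-TL was called in 12 at day 28 (50%), lower against 9 and higher against 3. At day 84 it was called in 10 (41.7%), lower against 7 and higher against 3, but only in 1 without day 84 pool 2 and in 3 without day 84 pool 1.

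**Figure D4:**
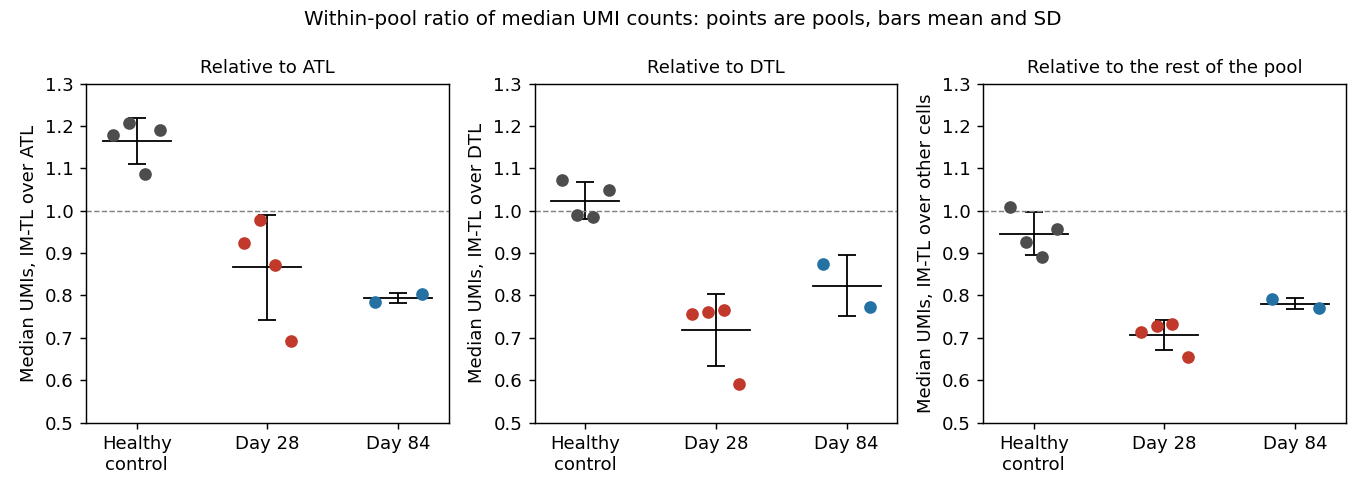
Median UMI count of IM-TL cells divided by that of ATL cells, DTL cells and all other cells of the same pool (points), with the mean and SD of each condition; the dashed line marks equal counts and the axis starts at 0.5. Relative to ATL the control pools lie between 1.09 and 1.21 and the pools after R-UUO between 0.693 and 0.978.

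The clusters against which the relative UMI count of IM-TL was called higher were deepIM-CD, the urothelial cluster and EndoVR/papilla. The UMI count of IM-TL itself was not called higher at either time. Median UMI counts of deepIM-CD cells were 5538 to 6997 in control pools, 3060 to 6475 at day 28 and 1783 to 2507 at day 84. Relative to deepIM-CD cells the log2 UMI count of IM-TL cells rose by 0.88 on day 28 (standard error 0.118, limma adjusted p = 1.66e-04) and 0.69 on day 84 (adjusted p = 0.00503), the latter with an adjusted p of 0.0598 without day 84 pool 2. Relative to urothelial cells (Uro) it rose by 0.87 (adjusted p = 0.00167) and 0.71 (adjusted p = 0.0252), calls that were not examined under the alternatives. Relative to EndoVR/papilla it rose by 0.71 at day 28 (adjusted p = 0.00113), where day 28 pool 4 had too few cells of that cluster to enter, and by 0.40 at day 84 (adjusted p = 0.0412), a call lost in 11 of 13 alternatives. Relative to IM-CD it changed by -0.05 (95% interval -0.36 to 0.27) and -0.02 (95% interval -0.41 to 0.36). Relative to InjuredLOH cells it changed by -0.68 at day 28 (adjusted p = 0.00345) and -0.59 at day 84 (adjusted p = 0.0327), from 3 control pools, as control pool 3 held 9 such cells and could not enter. The day 84 value against InjuredLOH lost its call in 7 of 13 alternatives. Relative to ISOM-TAL, a thick ascending limb cluster, it changed by -0.59 (adjusted p = 0.0147) and -0.76 (adjusted p = 0.0218). The ISOM-TAL call at day 28 was lost in 2 of 13 alternatives (adjusted p = 0.0646 without day 28 pool 4 and 0.0540 with means of log2 values). That at day 84 was lost in 4, without day 84 pool 1 or pool 2, with means of log2 values and with the stricter filter (adjusted p up to 0.148).

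The number of detected genes went with the UMIs. The median IM-TL cell had 961, 1121, 862 and 926 detected genes in the control pools, 1606, 1164, 1023 and 846 at day 28, and 622 and 507 at day 84. On the log2 scale the day 28 difference was 0.23 (limma adjusted p = 0.362, 32% of clusters called), and the day 84 value fell by 0.78 (adjusted p = 0.00993, exact permutation p = 0.133, 60% called). The latter call was lost without day 84 pool 1 (adjusted p = 0.0519) or pool 2 (adjusted p = 0.188). The authors' floor of 300 detected genes lies near the low end of day 84 pool 2, where 13.3% of IM-TL cells and 8.88% of the other cells had fewer than 400 genes, against at most 0.701% of IM-TL cells in any other pool. In that pool 47.4% of IM-TL cells had fewer than 500 genes. How many IM-TL cells the floor removed before deposit cannot be read from the files.

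Detected genes were also compared within a range of UMI counts, inside which the pools can still differ in depth. Among IM-TL cells with 800 to 1200 UMIs, the median number of genes was 859, 833, 795 and 801 in the control pools, 799, 785 and 820 in day 28 pools 2 to 4 and 779 and 750 in the day 84 pools. Day 28 pool 1 had 9 such cells and was left out of the fit. The log2 change was -0.04 at day 28 (limma adjusted p = 0.494, 11.1% of 18 clusters called) and -0.10 at day 84 (adjusted p = 0.0642, 31.6% of 19 called). In the window of 400 to 800 UMIs, which holds most day 84 cells, all 10 pools entered. There the medians were 644, 554, 603 and 604 genes in controls, 534, 521, 519 and 526 at day 28 and 522 and 481 at day 84. Every control pool lay above every pool after R-UUO, while the day 28 and day 84 pools overlapped. The changes in this window were -0.19 (limma adjusted p = 0.00417) and -0.26 (limma adjusted p = 3.68e-04). How many other clusters were called or separated in this window was not counted, so the changes are not read as particular to IM-TL. Leaving out single pools was not run for this window. Its highest value came from control pool 1, whose UMI counts are fractional.

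Mitochondrial UMIs, a measure of RNA content and quality in each cell, were far lower after R-UUO. The mean mitochondrial percentage of IM-TL cells was 1.92%, 2.45%, 1.85% and 2.14% in the control pools. In the day 28 pools it was 0.232%, 0.0108%, 0.0301% and 0.0320%, and in the day 84 pools 0.131% and 0.00%. In day 84 pool 2 none of the 622 IM-TL cells is listed with a mitochondrial UMI. The mean is listed at exactly 0 in 17 of the 25 clusters of that pool, while ISOM-TAL stood at 3.23%. The authors removed ambient RNA, and whether the deposited percentages were taken before or after that step was not tested. These zeros are therefore not read as a limit on what the cells held. On the scale of log2 of the percentage plus 0.1 the change was -3.78 for day 28 (standard error 0.424, limma adjusted p = 1.25e-08, exact permutation p = 0.0286) and -3.84 for day 84 (adjusted p = 3.12e-07, exact permutation p = 0.133). Most pool values after R-UUO lie below the added 0.1, so the size of the change depends on this constant, and with 0.5 in its place the changes were -2.18 and -2.20. A change passed in 100% of clusters at day 28 and 96% at day 84, so it was not particular to IM-TL.

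In healthy tissue IM-TL had the highest mitochondrial percentage of the thin limbs. The control pools read 1.09%, 1.70%, 1.06% and 1.08% for ATL and 1.16%, 1.95%, 1.26% and 1.20% for DTL, below IM-TL in 4 of 4 pools. ISOM-TAL, a segment dense in mitochondria, stood at 4.16% to 5.31% in controls and kept 1.79% to 3.76% after R-UUO. IM-TL ranked 8 or 9 of 25 clusters in the control pools and between 10 and 21 in the day 28 pools and day 84 pool 1. Day 84 pool 2, where 17 clusters tie at 0, gives no rank. After R-UUO the thin limbs no longer stood in a common order. The day 28 pools read 0.205%, 0.0169%, 0.0246% and 0.0431% for ATL and 0.328%, 0.0179%, 0.0166% and 0.0168% for DTL, and IM-TL was highest of the 3 in pool 3 alone. At day 84 ATL read 0.141% and 0.00% and DTL 0.0724% and 0.00%. Relative to the rest of its pool, which holds ISOM-TAL, the IM-TL percentage fell by 1.34 at day 28 (standard error 0.249, limma adjusted p = 0.00356, exact permutation p = 0.0286), in a comparison that called 24% of clusters. The rest also holds proximal tubule cells, more numerous at day 28 in most pools, and their cluster PT-S2 read 1.32% to 2.01% there. Over all 25 clusters the median change of this measure was -0.56 at day 28 and -0.25 at day 84. At day 84 the IM-TL change was -0.77 (limma adjusted p = 0.147, 4% called). Without day 84 pool 1 it was -1.29, and without pool 2 it was -0.26. With 0.5 as the added constant the relative changes were -0.59 (adjusted p = 0.00279) and -0.33.

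**Figure D5:**
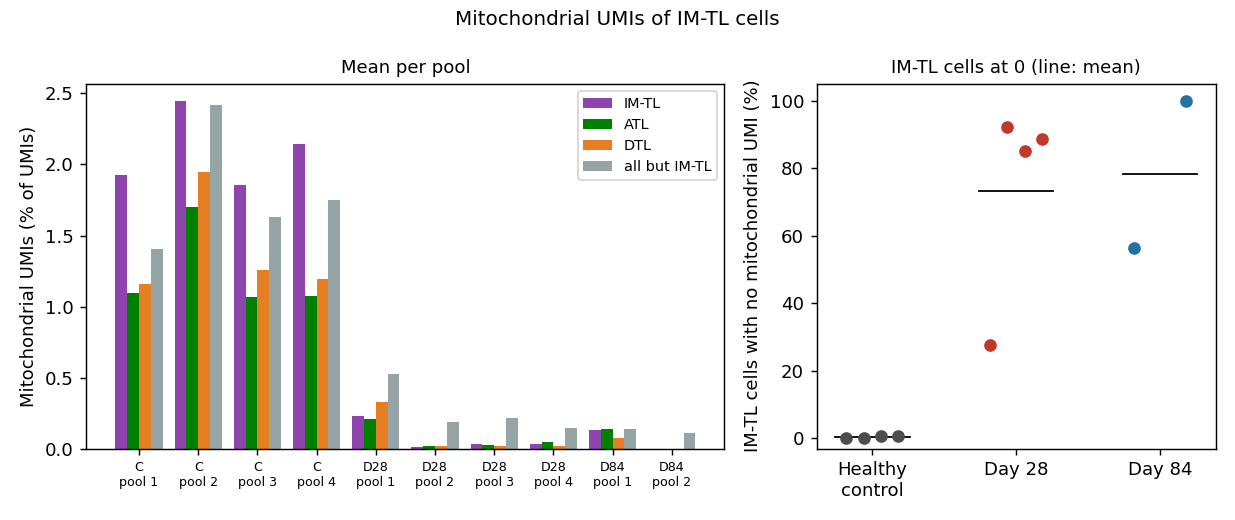
Mean mitochondrial percentage of UMIs for IM-TL, ATL, DTL and all cells but IM-TL in each pool (left; C, control; D28 and D84, days after R-UUO), and the percentage of IM-TL cells with no mitochondrial UMI (right; points are pools). IM-TL is the tallest of the thin limb bars in each control pool, and day 28 pool 1 (27.8%) and day 84 pool 1 (56.4%) stand below the other pools after R-UUO.

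The share of IM-TL cells without a mitochondrial UMI shows how near to the floor these values are. In control pool 2 it was 0 of 1362 cells, which allows a share of up to 0.220%, and in control pools 1, 3 and 4 it was 0.0766%, 0.864% and 0.771%. It was 27.8%, 92.1%, 85.0% and 88.6% at day 28 and 56.4% and 100% at day 84. For the other cells of the same pools it was 0.0174% to 1.21% in controls, 34.7%, 67.1%, 73.3% and 73.7% at day 28 and 60.0% and 96.6% at day 84. A cell of few UMIs has fewer chances to show one. Among IM-TL cells of 800 to 1200 UMIs the changes in percentage were -3.56 and -3.14 (limma adjusted p = 3.29e-06 and 2.08e-05). Relative to the rest of the pool in that UMI range, the change was -0.97 at day 28 (adjusted p = 0.0111) and -0.10 at day 84 (adjusted p = 0.945).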

How the data were processed

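Fixed cells of pooled medullas were measured with a probe-based droplet assay. The submitters' processing notes name Cell Ranger 7.1 and mm10. The authors' stated filters were a floor of 300 genes and a ceiling of 10% mitochondrial reads per cell. SoupX took out ambient RNA, scDblFinder and a screen for mixed signatures took out doublets, and Seurat gave the clusters. Versions of these 3 tools are not given in the sources used here. The deposited values per cell are a UMI count (an estimated count, fractional, in control pool 1, and whole in the other pools), a count of detected genes, a mitochondrial percent and the labels for pool, cell type and cluster. Of the IM-TL cells 3 had fewer than 300 genes and 0 exceeded 10% mitochondrial UMIs. The reference genome was not used.

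Cells were counted per cluster and pool, and medians (UMIs, genes) or means (mitochondrial percent) were taken over cells. Shares became log2 odds with 0.5 cells added to each side, ratios of clusters log2 ratios, and mitochondrial percent log2 of the value plus 0.1. A cluster entered a fit of per-cell values in a pool with at least 10 of its cells. limma 3.58.1 (R 4.3.3; two-sided, Benjamini-Hochberg over all clusters, threshold 0.05) compared conditions in one fit of all 3, and exact permutation tests (two-sided) compared the pools' means. edgeR 4.0.16 was an alternative on cell counts. Python 3.11.15, pandas 2.3.3, scipy 1.17.1 and matplotlib 3.10.9 made tables and plots. The fits were tested on simulated data. Binomial intervals are exact (Clopper-Pearson, 95%), and the limit for a count of 0 is 3 counts, both covering counting error only.

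The cluster and the tests were chosen with earlier results of these data known. Clusters named beside IM-TL are the other thin limb, LOH and inner medullary clusters, proximal tubule as a sign of outer tissue, and the clusters with the steepest ratio change. Urothelial cells were named after their values were seen. The ATL comparison with its alternatives, the probe barcode as a covariate, the pool number as a block and the shares among cells of 800 to 1200 UMIs were added after seeing the data. Other alternatives were a stricter filter (500 genes or more, mitochondrial UMIs of 5% or less), leaving out the 5% of cells with most UMIs, other denominators and references, other added constants, means for medians, and leaving out each pool.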

Additional observations from a re-analysis of the deposited data

Results flagged for a closer look

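Of 38 sets of pools tested for a value far from the others, 8 had one, where chance gives about 1 in 20 sets, or 1.90. These sets overlap in pools and cells. Day 28 pool 4 accounted for 6 of them. It held 1.97 IM-TL cells per ATL cell (0.458 to 0.642 in the other day 28 pools), 6.34 per deepIM-CD cell (0.382 to 0.798), 3.44 per IM-CD cell (0.638 to 0.812) and 71.4 per EndoVR/papilla cell (1.32 to 2.60). IM-TL made up 25.0% of its 6 inner medullary clusters (7.88% to 9.82%), and its IM-TL cells had 0.590 times the UMIs of its DTL cells (0.756 to 0.767).

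Day 28 pool 1 stood apart in mitochondrial UMIs of IM-TL cells, with a mean of 0.232% (0.0108% to 0.0320% in the other day 28 pools) and 27.8% of cells without one (85.0% to 92.1%). Its other cells also had the highest mean of the condition, 0.527% against 0.146% to 0.214%.

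The UMI count per IM-TL cell differed between the R-UUO time points, by -1.23 on the log2 scale at day 84 against day 28 (limma adjusted p = 0.00135), as it did in all 25 clusters. The causes of these values were not tested.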

How the results depend on the processing

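Of 731 values recomputed under alternatives, 631 kept their direction and side of the threshold (counts: stayed within 1.5 times), 56 lost the threshold, 18 gained it, 7 counts moved further and 19 changed sign. The falls at day 28 in the share of all cells, in UMIs relative to the rest of the pool and to ATL, and in mitochondrial percentage kept their calls under each alternative run, except the share among the inner medullary clusters; the LOH share at day 28 kept its call except among cells of 800 to 1200 UMIs. The causes of the changes below were not tested.

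Among the inner medullary clusters alone the share changed by -0.08 (day 28) and -0.27 (day 84) against control and by -0.20 between them. Among cells of 800 to 1200 UMIs the day 84 against day 28 difference was -0.05 for all cells and -0.79 for LOH cells, and the day 28 LOH share changed by -0.84. The LOH share at day 84 was -1.12 without InjuredLOH and -0.92 with edgeR (adjusted p = 0.157). The UMI count at day 84 was -0.62 (adjusted p = 0.118) with the stricter filter and -0.64 (adjusted p = 0.140) with the probe barcode as a covariate. Relative to the rest of the pool, the day 84 UMI change was -0.33 (adjusted p = 0.00840) with the stricter filter, day 84 differed from day 28 by 0.36 (adjusted p = 0.0424) against other LOH cells, and the mitochondrial change at day 84 was -1.50 (adjusted p = 0.0205) against other LOH cells. Genes at 400 to 800 UMIs changed by -0.19 and -0.26. The stricter filter turned IM-TL cells per deepIM-CD cell at day 84 to -0.86 and UMIs relative to IM-CD at day 84 to 0.06. At day 84, 17 clusters were called for the cell ratio with only the 2 conditions compared in the fit, and 5 for relative UMIs with means of log2 values.

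The pool names in the files carry numbers that the conditions share, but no label says that a number pairs pools, and deviations of same-numbered control and day 28 pools from their group means correlated over clusters at -0.42, 0.54, 0.04 and 0.40. With the pool number as a replicate block, fitted after seeing the data, the share of all cells changed by -1.88 (adjusted p = 0.00158) at day 28 and -1.04 (adjusted p = 0.0762) at day 84, the LOH share by -1.92 and -1.05 (adjusted p = 0.0313), and genes at 800 to 1200 UMIs by -0.13 (adjusted p = 0.0288) at day 84. The block changed no other call among the values it was run on. Day 84 pools 1 and 2 carry the probe barcodes of pools 3 and 4 of the other conditions, and with the probe barcode as a covariate the day 84 shares changed by -1.76 (adjusted p = 0.0152) and -1.80 (adjusted p = 0.00670).

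Leaving out each pool in turn, the day 84 changes ranged from -1.49 to -1.33 (share of all cells), -1.59 to -1.32 (LOH share), -1.03 to -0.72 (UMIs), -0.93 to -0.63 (genes), -0.30 to -0.24 (UMIs relative to the rest), -0.59 to -0.54 (UMIs relative to ATL) and -1.29 to -0.26 (mitochondrial percentage relative to the rest). IM-TL cells per cell of another cluster ranged at day 28 from -0.28 to 1.07 (deepIM-CD), -0.01 to 0.80 (IM-CD) and -0.03 to 1.86 (EndoVR/papilla), the lowest each without day 28 pool 4. At day 84 they ranged from -0.19 to 0.12 (ATL), -0.11 to 0.15 (deepIM-CD), -0.88 to 0.12 (IM-CD) and -1.23 to 0.04 (ISOM-TAL). UMIs relative to IM-CD ranged from -0.18 to 0.06 at day 28 and -0.08 to 0.04 at day 84. The count of clusters called at day 84 ranged from 9 to 19 for the cell ratio, the highest without day 28 pool 4, and from 1 to 13 for relative UMIs.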
